A study of Mus musculus with 2 samples.

Results

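Narrow intergenic distal peaks of histone H3 trimethylated at lysine 4 (H3K4me3) were examined in E14TG2a.4 cells, which are male embryonic stem cells of mouse strain 129/Ola with a labelled embryo age of 3.5 days. The peaks were taken from the authors' replicated list on the mm10 genome, on chromosomes 1 to 19, X and Y. A peak was a member when it was under 2000 bp wide, lay more than 5 kb from the 5′ end of every gene of any biotype in the RefSeq table, and overlapped no gene body. This rule found 9861 members among 62115 peaks, 15.9% of the list. The members were thus selected on the authors' peak calls, on measured width and on position, and their number, width and distance are given as descriptions.

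The study profiled H3K4me3 by chromatin immunoprecipitation and sequencing (ChIP-seq) in 1 group of 2 biological replicates, with no other genotype, treatment or time. Both replicates came from the same cell line, so they carry the variation between preparations of 1 line and not between lines. The sequencing depth is unknown, and peak numbers can depend on it. With no second group, no test between conditions was possible, and no difference between classes of peaks was tested. Markers of the line were looked up: 8 of 8 embryonic stem cell markers had a peak within 1 kb of their 5′ end, with signals from 16.1 at Dppa5a to 69.4 at Pou5f1. A peak alone says little of cell type, since 66.6% of all coding genes had one. Among 8 fibroblast markers, 3 had such a peak, namely Col1a1 with a signal of 15.7, Col1a2 with 13.7 and Thy1 with 23.4, while Col3a1, Acta2, Dcn, Lum and Postn had none.

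H3K4me3 is laid down by SET1 and MLL methyltransferase complexes and is concentrated at active and poised promoters, above all those with many CpG dinucleotides, which are bound by CXXC-domain proteins of these complexes. Enhancers usually carry more H3K4me1 than H3K4me3, although low H3K4me3 is often found at active ones. A strong H3K4me3 peak far from annotated genes can also mark the start of a transcript that the annotation does not hold, such as a long primary transcript of a microRNA.

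Sequence was read from the mm9 genome, because the authors also deposited mm9 lists and no mm10 genome was used here. The same rule, applied to the pooled mm9 list with GENCODE vM1 transcript starts and gene bodies, gave 15951 counterpart regions of 64140. These regions were called separately, in steps of 200 bp, and are not the mm10 members moved to another build. The central 300 bases of a few regions are shown, on the plus strand, in lower case with every CG dinucleotide in capitals, because CpG content differed between strong and weak regions.

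Of 34 strong or stem cell gene members tried in mm10, 31 had a gene found in both annotations. For 24, an mm9 region lay on the same side of that gene, with its centre offset within 1 kb of that in mm10. Of these 24 regions, 8 were narrow, intergenic and distal in mm9, and 12 were wide, intergenic and distal. The rest were not intergenic and distal in mm9. The region for Mycn came within 1 kb of a transcript start. Those for Mirlet7a-1 and Klf5 lay 1 to 5 kb from one, and that for Lefty1 overlapped a gene body. The 4 windows shown first were chosen after their values were seen, as the strongest mm10 members with such a region that was intergenic and distal in mm9 too. In order, they come from regions upstream of Pum2, Mir30d, Cdk1 and Slc25a21. Counted along the gene from its 5′ end to the centre, the mm9 regions lay at -33.1, -21.4, -46.6 and -14.5 kb, and the mm10 members at -33.1, -20.8, -46.1 and -14.5 kb. In the pooled mm9 list their signals were 14.9, 20.7, 26.7 and 23.6. Replicate 1 gave 21.1, 18.98, 24.99 and 45.7 and replicate 2 gave 20.3, 22.2, 28.7 and 27.2.

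chr12:8647651-8647950: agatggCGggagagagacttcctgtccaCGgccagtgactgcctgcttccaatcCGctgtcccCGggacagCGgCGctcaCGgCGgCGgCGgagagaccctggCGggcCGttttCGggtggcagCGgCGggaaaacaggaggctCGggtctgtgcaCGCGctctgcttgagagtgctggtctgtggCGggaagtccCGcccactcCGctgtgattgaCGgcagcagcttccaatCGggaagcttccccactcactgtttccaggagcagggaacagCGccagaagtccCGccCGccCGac
chr15:68194151-68194450: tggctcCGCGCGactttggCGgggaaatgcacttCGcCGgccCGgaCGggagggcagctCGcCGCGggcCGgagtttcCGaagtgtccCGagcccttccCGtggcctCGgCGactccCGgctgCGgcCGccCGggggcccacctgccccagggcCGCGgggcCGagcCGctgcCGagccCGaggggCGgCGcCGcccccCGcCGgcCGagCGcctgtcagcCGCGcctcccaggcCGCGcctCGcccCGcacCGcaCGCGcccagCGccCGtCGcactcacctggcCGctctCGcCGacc
chr10:68862151-68862450: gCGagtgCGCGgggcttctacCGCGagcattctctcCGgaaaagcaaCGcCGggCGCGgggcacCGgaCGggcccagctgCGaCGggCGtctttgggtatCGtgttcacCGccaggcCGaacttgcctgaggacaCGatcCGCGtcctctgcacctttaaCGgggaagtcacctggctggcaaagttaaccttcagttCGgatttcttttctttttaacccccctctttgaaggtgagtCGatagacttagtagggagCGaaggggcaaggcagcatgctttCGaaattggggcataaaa
chr12:58312851-58313150: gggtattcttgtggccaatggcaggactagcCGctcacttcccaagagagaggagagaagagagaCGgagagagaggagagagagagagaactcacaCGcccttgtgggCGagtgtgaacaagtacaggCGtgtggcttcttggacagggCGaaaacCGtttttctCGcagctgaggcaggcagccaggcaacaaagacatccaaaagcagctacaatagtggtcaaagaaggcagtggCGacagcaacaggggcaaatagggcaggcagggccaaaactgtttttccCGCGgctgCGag

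These windows held 27, 49, 26 and 12 CpG dinucleotides, against a median of 9 in all counterpart regions. Other mm9 regions were found for the 12 strongest mm10 members. Their central windows at Ptma, Mirlet7a-1, Cldn9 and Dicer1 held only 5, 6, 2 and 6, so the windows found were not all CpG-rich. Those 4 regions were 6600, 4200, 3800 and 3200 bp wide, so their centres can lie outside the mm10 members. At Ptma the centre lay at -36.8 kb, against -38.1 kb for the member. CpG content of the members themselves was not read. In the windows shown, the ratios of observed to expected CpG were 0.811, 1.02, 1.05 and 0.548. None of the 4 held a 31-base stretch that occurred elsewhere in the mm9 genome. In mm9 the regions at Pum2, Mir30d and Cdk1 were 2400, 3000 and 2600 bp wide, so they counted there as wide regions, and the region at Slc25a21 was 1600 bp wide.

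Near genes of the pluripotency network, the strongest counterpart regions within 100 kb of Sox2 and Klf4 are shown in that order. These genes encode transcription factors that maintain embryonic stem cells.

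chr3:34594651-34594950: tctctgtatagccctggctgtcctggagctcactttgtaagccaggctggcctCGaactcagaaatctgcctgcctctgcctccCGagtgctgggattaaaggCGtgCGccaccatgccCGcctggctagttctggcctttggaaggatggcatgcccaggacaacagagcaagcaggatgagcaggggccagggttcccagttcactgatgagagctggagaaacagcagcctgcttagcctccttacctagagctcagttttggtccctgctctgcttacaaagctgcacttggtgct
chr4:55527651-55527950: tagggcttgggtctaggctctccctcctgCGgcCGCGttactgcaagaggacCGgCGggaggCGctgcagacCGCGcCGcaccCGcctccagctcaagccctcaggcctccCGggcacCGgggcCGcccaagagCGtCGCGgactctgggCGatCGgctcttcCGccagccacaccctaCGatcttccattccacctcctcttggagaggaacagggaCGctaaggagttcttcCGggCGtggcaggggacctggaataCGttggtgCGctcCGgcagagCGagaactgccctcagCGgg

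The windows differed in CpG content. The window of the region 16.7 kb downstream of Klf4 held 28 CpG dinucleotides at an observed to expected ratio of 0.809. It also held 1 match to GGGCGTGG, a KLF motif. The window of the region 45.5 kb downstream of Sox2 held 5 CpG dinucleotides at a ratio of 0.205. In it, 28.1% of the 31-base stretches occurred more than once in the genome, against 0% in the Klf4 window. The nearest mm10 member to Sox2 lay 85.4 kb away. The Klf4 region had a pooled signal of 10.1, with 13.95 in replicate 1 and 7.67 in replicate 2. The Sox2 region had 5.54, with 5.81 and 4.13.

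The counterpart regions ranked 1, 2 and 4 by signal are shown next.

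chr12:117130951-117131250: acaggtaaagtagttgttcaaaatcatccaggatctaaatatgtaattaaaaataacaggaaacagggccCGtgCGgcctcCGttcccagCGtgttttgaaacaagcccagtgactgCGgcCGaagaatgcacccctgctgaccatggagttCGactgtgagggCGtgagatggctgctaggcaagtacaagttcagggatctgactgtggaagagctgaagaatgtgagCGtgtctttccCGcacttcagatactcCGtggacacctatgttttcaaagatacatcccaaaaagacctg
chr7:55392751-55393050: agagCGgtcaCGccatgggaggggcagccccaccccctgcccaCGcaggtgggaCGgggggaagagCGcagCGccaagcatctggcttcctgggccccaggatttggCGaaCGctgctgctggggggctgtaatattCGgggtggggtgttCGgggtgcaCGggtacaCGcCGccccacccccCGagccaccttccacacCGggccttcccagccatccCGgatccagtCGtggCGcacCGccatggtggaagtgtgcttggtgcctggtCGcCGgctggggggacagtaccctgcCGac
chr7:83390751-83391050: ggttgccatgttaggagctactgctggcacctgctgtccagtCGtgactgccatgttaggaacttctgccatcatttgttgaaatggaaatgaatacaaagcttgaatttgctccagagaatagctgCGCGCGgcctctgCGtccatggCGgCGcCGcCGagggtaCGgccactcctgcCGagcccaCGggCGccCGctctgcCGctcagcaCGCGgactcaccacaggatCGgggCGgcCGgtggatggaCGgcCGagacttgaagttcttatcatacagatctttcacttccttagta

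Their signals were 230, 189 and 71.0, and each was a single step of 200 bp. They were not found in both replicates. The first had a signal of 266 in replicate 1 and no overlapping region in replicate 2, the second had none in either replicate, and the third had 84.7 in replicate 1 alone. The 2 strongest regions without a CpG in the window are shown for contrast.

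chr6:51368051-51368350: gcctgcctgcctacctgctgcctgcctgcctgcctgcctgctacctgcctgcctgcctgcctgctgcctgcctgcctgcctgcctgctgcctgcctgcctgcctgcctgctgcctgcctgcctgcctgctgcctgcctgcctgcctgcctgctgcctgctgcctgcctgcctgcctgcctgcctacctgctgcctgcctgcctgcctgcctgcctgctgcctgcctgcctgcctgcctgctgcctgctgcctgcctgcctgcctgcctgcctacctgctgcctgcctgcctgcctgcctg
chr1:152931251-152931550: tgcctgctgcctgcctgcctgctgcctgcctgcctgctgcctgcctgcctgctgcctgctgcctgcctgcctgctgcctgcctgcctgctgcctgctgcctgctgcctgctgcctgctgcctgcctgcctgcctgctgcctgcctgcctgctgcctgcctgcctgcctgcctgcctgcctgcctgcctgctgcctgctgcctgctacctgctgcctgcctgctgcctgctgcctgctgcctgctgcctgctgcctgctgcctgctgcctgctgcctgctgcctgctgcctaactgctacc

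Their pooled signals were 23.7 and 12.1. Replicate 1 overlapped the first with a signal of 4.69, replicate 2 overlapped neither, and 95.2% and 89.6% of their 31-base stretches occurred more than once in the genome.

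Most members of the mm10 set were weak. The signal is the authors' enrichment ratio for each peak, whose denominator is not stated. Its median over the 9861 members was 4.31, with a quartile range from 3.45 to 5.90, a 95th percentile of 12.3 and extremes of 1.41 and 77.5. Peaks within 1 kb of a gene 5′ end, 18709 in number, had a median of 28.5. Narrow distal peaks inside gene bodies, 20293 in number, had a median of 4.21 with an upper quartile of 5.90 that equalled that of the members. The 389 intergenic distal peaks of 2000 bp or more had a median of 11.9. Members and narrow peaks in gene bodies thus covered nearly the same range of signal, while peaks at gene starts reached far higher.

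**Figure D1:**
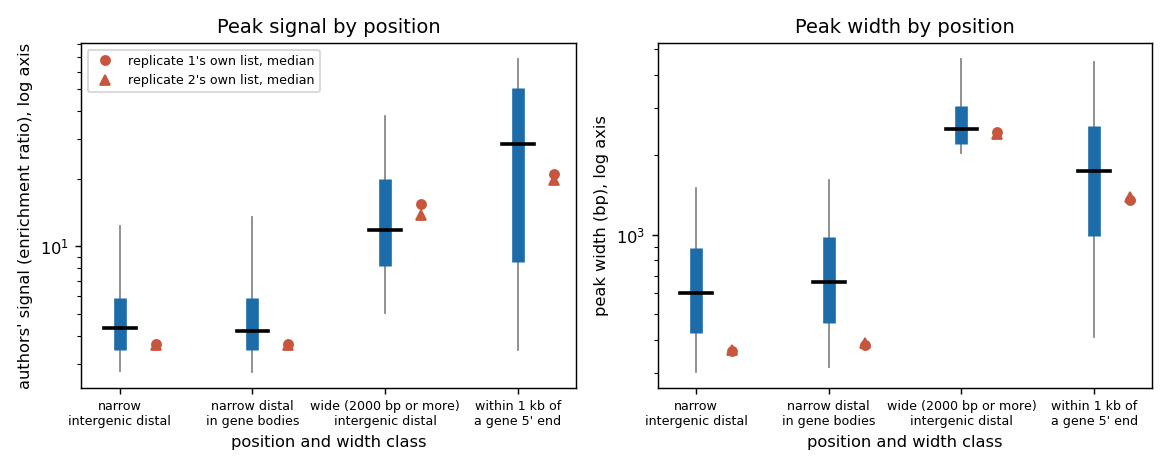
Signal (left, the authors' enrichment ratio, log axis) and width (right, bp, log axis) of peaks in the replicated mm10 list by class. Black lines are medians, blue bars quartile ranges, grey lines the 5th to 95th percentiles, and red points the medians in each replicate's own list; members have a median signal of 4.31 and peaks at gene starts one of 28.5.

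Applied to each replicate's own list, the rule gave 14675 members in replicate 1 and 14441 in replicate 2, a mean of 14558 ± 165 (SD, n = 2). They made up 16.9% and 17.2% of those lists. Their median signals were 3.67 and 3.63, and their median widths 365 and 368 bp, against 600 bp in the replicated list. The replicated list, whose 62115 peaks all occur in the pooled list with the same signal, thus held fewer and wider members than either replicate. All members together covered 6.98 Mb, and the members of the replicates' own lists covered 7.09 and 6.96 Mb.

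The members just inside the width limit were 1998, 1998 and 1997 bp wide with signals of 12.9, 4.64 and 3.53, and the peaks just outside were 2000, 2001 and 2001 bp wide with signals of 19.8, 13.1 and 9.60. At the distance limit, members at 5001, 5002 and 5003 bp had signals of 4.17, 3.16 and 4.00. Peaks at 5000, 5000 and 4999 bp had 4.25, 3.46 and 4.46.

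Of the members, 94.4% were overlapped by a peak of replicate 1 and 92.2% by a peak of replicate 2. Both replicates overlapped 8570 members, 86.9%, while 90.7% of all replicated peaks were overlapped in both. Only replicate 1 overlapped 742 members, only replicate 2 overlapped 525, and 24 were overlapped in neither. The replicated list was itself derived from these replicate lists, so much of this overlap is fixed by how the members were selected and is given as a description. In quartile classes of signal, from the lowest to the highest, 66.3, 83.4, 96.4 and 99.96% of members were overlapped in both replicates, the last being 2550 of 2551. A q-value under 1e-05 was reached by 8438 members, 85.6%, against 89.1% of all replicated peaks.

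Over the 8570 members found in both lists, the median signal was 4.40 in replicate 1 and 4.15 in replicate 2. A member's replicate signal was the highest of any overlapping peak of that replicate, which can reach beyond the member. By this measure the replicates differed by at most 2-fold for 98.1% of these members. Across members, Spearman's rho was 0.696 and Pearson's r of the log2 signals was 0.822. Members are not independent replicates, and each pair of values shares its region and possibly a control, so these coefficients are descriptions. Signals took a limited set of values: 65.1% of members had a signal within 0.002 of a multiple of 0.14378.

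**Figure D2:**
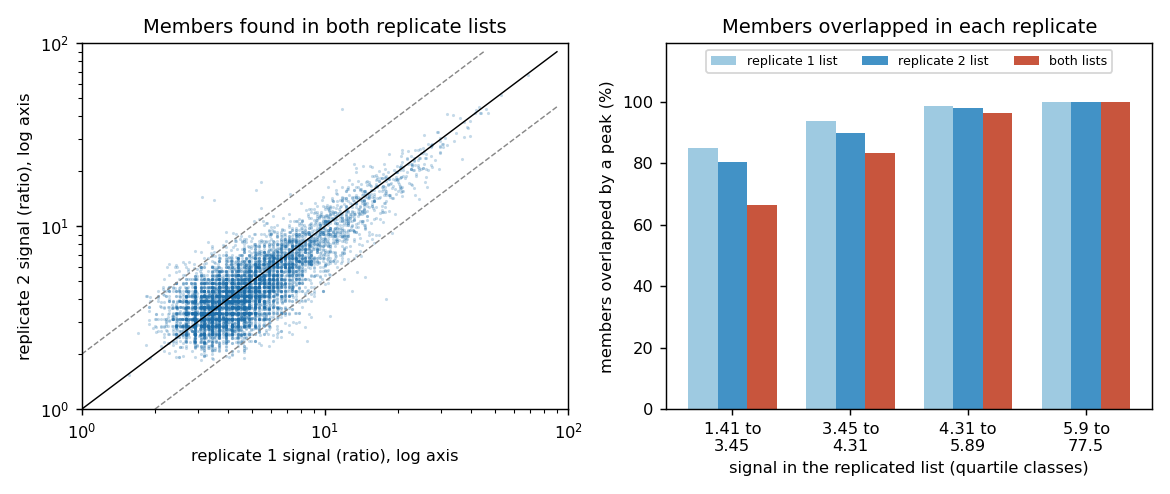
Left: signal in replicate 1 (x) and replicate 2 (y) for the 8570 members found in both lists, log axes, with the line of equality and dashed lines at 2-fold. Right: percent of members overlapped in each replicate list and in both, by signal quartile class; the share in both rises from 66.3% to 99.96%.

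A small number of members had signals like those at gene starts. There were 795 members over 10, 162 over 20, 40 over 30 and 17 over 40, and every one of them was overlapped in both replicate lists, from which the replicated list was derived. Of peaks at gene starts, 72.0% exceeded 10 and 37.4% exceeded 40. In the replicates' own lists, 811 and 663 members exceeded 10, and 11 in each exceeded 40. Of the 17 strongest, 8 had no other peak within 5 kb.

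The strongest member was chr12:8640214-8641767, 32.3 kb upstream of Pum2, which encodes an RNA-binding repressor of translation. Its signal was 77.5 in the replicated list, 68.3 in replicate 1 and 67.4 in replicate 2. Next came chr1:86487647-86489330, 37.2 kb upstream of Ptma, which encodes the abundant nuclear protein prothymosin alpha, with signals of 59.2, 53.1 and 52.1. Ptma was its nearest coding gene, and the pseudogene Rpl30-ps6 lay nearer, 14.1 kb away. The third, chr15:68361234-68362927, lay 19.9 kb from the 5′ end of Mir30d, a microRNA of the miR-30 family, with signals of 51.6, 45.8 and 43.8. The member chr8:19979824-19981171, 32.7 kb from the noncoding gene Gm36166, had 50.8, 47.0 and 41.5. The fifth, chr10:69398229-69399746, lay 45.3 kb upstream of Cdk1, the kinase that drives entry into mitosis, with 49.5, 43.1 and 45.1. Cdk1 was its nearest coding gene, and the pseudogene Gm18636 lay nearer, 22.9 kb away. In all 5 the replicates differed by little beside the gap to the median member. The members near Ptma and Mir30d had another peak of the list 0.123 and 0.052 kb away, while the next peak lay 31.4 kb away at Pum2, 194 kb away at Gm36166 and 23.05 kb away at Cdk1.

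The members ranked 6 to 12 by signal were looked at after their values were seen. They lay nearest to Mirlet7a-1, Slc25a21, Cldn9, Gm40843, Dicer1, Erdr1 and Fer, in order of signals from 48.5 to 42.7. The member chr13:48545994-48546620 lay 7.72 kb from Mirlet7a-1, which gives rise to a let-7 microRNA, and its signals were 48.5 in the replicated list, 43.8 in replicate 1 and 41.5 in replicate 2. The mm9 region found for it lay 1 to 5 kb from a transcript start, so it was not distal there. Another member, chr12:104760277-104761928, lay 8.31 kb upstream of Dicer1, the nuclease that releases mature microRNAs, with signals of 44.3, 39.6 and 37.5. In all, a microRNA gene was the nearest gene of 160 members, and 3 of these had a signal over 20. Their median signal was 4.17, close to that of all members. MicroRNA genes were 2.46% of the gene table and were the nearest gene of 1.62% of members.

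The weakest members had signals near 1.5. They were chr18:3005659-3005881 with 1.41, chr12:20231109-20231856 with 1.54 and chr2:98666582-98667320 with 1.56. The first was found only in replicate 1, at 1.47. The second had 1.71 and 2.61 in the replicates, and the last had 1.56 and 1.54. Signal and significance were not in step here, since the peak on chromosome 2 had a −log10 q-value of 13.5 and the one on chromosome 12 had 1.09.

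The median member lay 16.7 kb from the nearest gene 5′ end. There were 2618 members at 5 to 10 kb, 3125 at 10 to 20 kb, 2960 at 20 to 50 kb, 844 at 50 to 100 kb and 314 beyond 100 kb. Median signal was 4.31 in each bin up to 100 kb and 4.42 beyond it, so it did not fall with distance. Width fell from a median of 632 bp in the nearest bin to 461.5 bp in the farthest. The share with another peak of the list within 5 kb fell from 62.7% to 11.5%, through 55.7, 49.7 and 30.7%. The 3 farthest members were chr19:49070029-49070451 at 639 kb, chr15:15089123-15089420 at 622 kb and chr4:29751669-29752046 at 556 kb. Their signals were 5.18, 3.45 and 4.03, and the one on chromosome 15 was found only in replicate 2.

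Neighbours within 5 kb were found for 5150 members, 52.2%, against 64.3% of all replicated peaks and 64.3% of narrow distal peaks in gene bodies. The nearest such neighbour was another member for 41.9% of members and a wide intergenic peak for 2.49%. When members less than 5 kb apart were joined, they formed 7121 groups. Of these, 5473 held a single member, 592 held at least 3, with 2276 members between them, and the largest held 17.

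Members gathered densely in a few places. The stretch of 200 kb with most members was chr12:86771047-86939055, with 27 members and the genes Irf2bpl, a transcriptional coregulator, and Cipc, a partner of the clock protein CLOCK. In the replicates' own lists the stretch held 38 and 44. Next was chr11:95497450-95681733 with 25, or 39 and 36 in the replicates, at Nxph3, the nerve growth factor receptor gene Ngfr, and the prohibitin gene Phb. The third was chr2:172558876-172739791 with 24, or 35 and 30 in the replicates. It held no protein-coding gene, and the nearest was Tfap2c, which encodes transcription factor AP-2 gamma. Median signals in these 3 stretches were 3.79, 4.03 and 3.81, so the clusters were built of members of ordinary strength, with strongest members of 20.7, 15.2 and 18.1.

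The nearest gene was protein-coding for 3935 members, a long noncoding RNA for 3717 and a pseudogene for 1583. The nearest protein-coding gene lay at a median of 33.6 kb. It carried a promoter peak itself for 83.5% of members. Counted once each, 3525 of the 4412 nearest coding genes, 79.9%, had a promoter peak, against 66.6% of all 21536 coding genes with a known strand. This share did not vary with the members' own signal: it was 84.1, 83.5, 82.7 and 83.7% from the lowest to the highest quartile class. Members lay upstream of their nearest coding gene in 63.7% of cases. The rule removes gene bodies, so a member on the downstream side lies beyond the end of the gene. A 3′ end of a gene lay within 5 kb of 16.3% of members.

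Around lists of genes, members were counted within 50 kb of the 5′ end. In the list for core and naive pluripotency, 28 of 39 genes, 71.8%, had a member there, against 27.7% of all coding genes. It was also true of 36 of 60 developmental transcription factors. The share was 57.1% for 14 genes of the formative and primed epiblast (8 genes), 46.2% for 39 Hox genes (18 genes) and 43.3% for 30 housekeeping genes (13 genes). It was 26.7% for 30 liver genes (8 genes), 24.1% for 29 blood and immune genes (7 genes) and 20.0% for 30 genes of neurons and glia (6 genes). In the replicates' own lists the pluripotency share was 76.9% in each, the share over all coding genes 33.1 and 31.9%, and the neuronal share 26.7 and 20.0%. Coding genes with a promoter peak had a member in 33.1% of cases and those without in 16.9%.

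The space open to members differs between genes. Within 50 kb of the 5′ end, the median intergenic distal space was 35.4 kb for pluripotency genes, 39.9 kb for developmental factors, 13.7 kb for housekeeping genes and 21.997 kb for all coding genes. Per Mb of that space there were 77.8 members around pluripotency genes, 71.8 around housekeeping genes, 60.4 around Hox genes, 54.8 around epiblast genes and 38.0 around developmental factors. The density was 16.6 around blood genes, 13.9 around liver genes, 9.49 around neuronal genes and 21.4 over all coding genes. Housekeeping genes, with less open space, therefore ranked next to pluripotency genes by density although their share of genes was lower. Genes of a cluster, such as the Hox genes, share members and space, and members separated by short gaps were each counted. Densities in the replicates' own lists were 127 and 125 for pluripotency genes and 118 and 116 for housekeeping genes, against 32.3 and 30.9 for all coding genes.

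**Figure D3:**
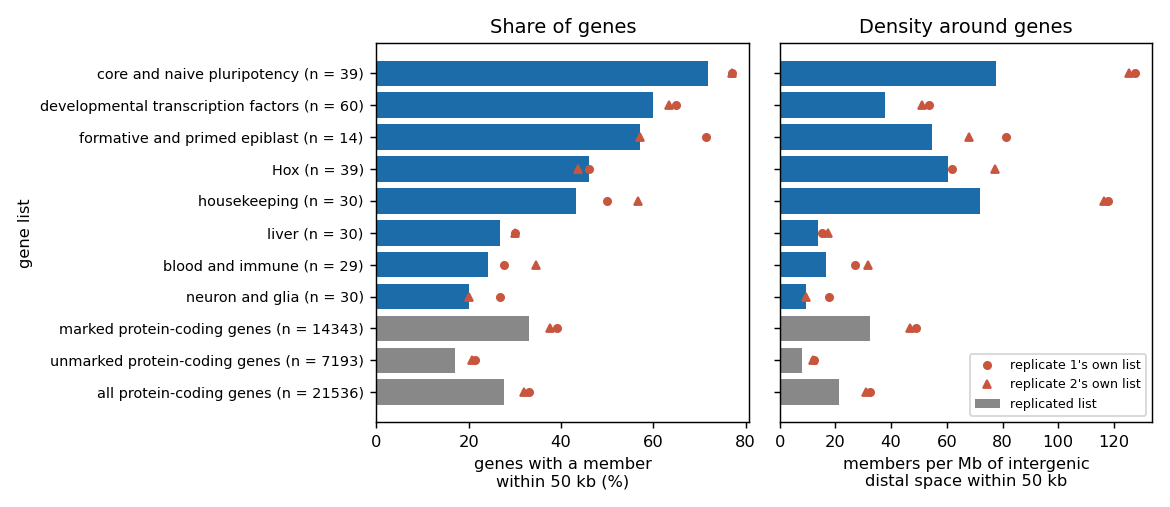
Percent of the genes of each list with a member within 50 kb of the 5′ end (left) and members per Mb of intergenic distal space within 50 kb (right). Bars are the replicated list (grey for sets of all coding genes, where marked means with a promoter peak) and points the replicates' own lists; pluripotency genes stand at 71.8% and 77.8 per Mb, all coding genes at 27.7% and 21.4 per Mb.

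All 22 stem cell genes examined singly had a member within 100 kb, against 44.6% of all coding genes. They had a median of 4 members, and the number ran from 1 at Tfcp2l1 and Tet2 to 14 at Tbx3, a T-box factor of naive pluripotency. Sall4, a zinc-finger partner of Pou5f1, had 13, and Sall1 and Mycn had 12 each. Klf2 and Klf5 had 10 each. Only 0.933% of coding genes had 10 or more. A member near a neighbouring gene counts for both, and members separated by short gaps were each counted.

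Pou5f1, the gene of the POU factor Oct4, had 7 members within 100 kb, or 11 and 12 in the replicates' own lists. The strongest, 69.3 kb downstream, had a signal of 14.8 in the replicated list, 13.5 in replicate 1 and 13.2 in replicate 2. Nanog had 8 members, or 10 and 11, and the strongest, 39.3 kb upstream, had 8.26, 9.97 and 9.07. Klf4 had 4, or 8 and 8, and the strongest, 16.8 kb downstream, had 20.8, 20.3 and 16.3. Sox2 had only 2, or 4 and 8, with a strongest signal of 3.51 and 3.43 and 3.07 in the replicates, 89.7 kb downstream. By the same rule with GENCODE vM1 genes, the pooled mm9 list held 7 counterpart regions within 100 kb of Sox2, 3 of Nanog and 1 of Klf4. The order of these 3 genes was thus not the same in mm9. The number of members around these genes therefore depended on the list and annotation used, most of all at Sox2. The space open to members was not compared between these single genes.

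Mycn, the N-Myc oncogene, had the strongest of these members, 38.8 kb downstream, with 34.6 in the replicated list, 25.6 in replicate 1 and 31.6 in replicate 2. Id1, a target of BMP signalling that restrains differentiation, had one 11.4 kb upstream with 19.7, 16.9 and 18.4. The strongest near Tbx3 had 9.69, 9.07 and 9.07. Prdm14, a regulator of naive pluripotency and germ cells, had one with 9.49, 6.37 and 10.1. The strongest members near the other 14 genes had signals from 2.73 at Tfcp2l1 to 9.63 at Klf2. In mm9, the region found for the Mycn member was 9000 bp wide and came within 1 kb of a transcript start. It was therefore not distal on the mm9 annotation.

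Genes with most members within 50 kb, looked at after their values were seen, were Epha2, a receptor of ephrin signalling, and Ptma, with 17 each. They had 20 and 22, and 18 and 21, in the replicates' own lists. Members separated by short gaps were each counted, and near Ptma the mm9 list held a region of 6600 bp. Nfkbia, an inhibitor of NF-kappa-B, and Commd7 had 15 each. Within the lists, Jarid2, a subunit of Polycomb repressive complex 2, had 13, Actb had 9 and Dnmt3b, a de novo DNA methyltransferase, had 8.

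Members were scarce on the sex chromosomes. Per Mb of space that the rule allows, the autosomes held 9.04 members, from 5.59 on chromosome 14 to 15.8 on chromosome 11. The X chromosome held 1.20, with 125 members, and the Y chromosome 0.107, with 9. In the replicates' own lists the X held 1.59 and 1.84 per Mb, against 13.5 and 13.2 on autosomes. For 100 peaks at gene starts there were 53.7 members on autosomes and 21.1 on the X. Narrow peaks in gene bodies followed the same order, with 21.1 per Mb on autosomes and 3.71 on the X. Median member signal was 4.60 on the X and 4.31 on autosomes, so the members listed there were not weaker. Peaks at gene starts were weaker on the X, with a median signal of 17.97 against 29.19 on autosomes. Sites too weak to be called are absent from the list. The member medians therefore cannot show whether distal sites on the X were weaker. The line is male and carries 1 X, and assembly gaps were not removed from the space. Their part in these values was not tested.

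**Figure D4:**
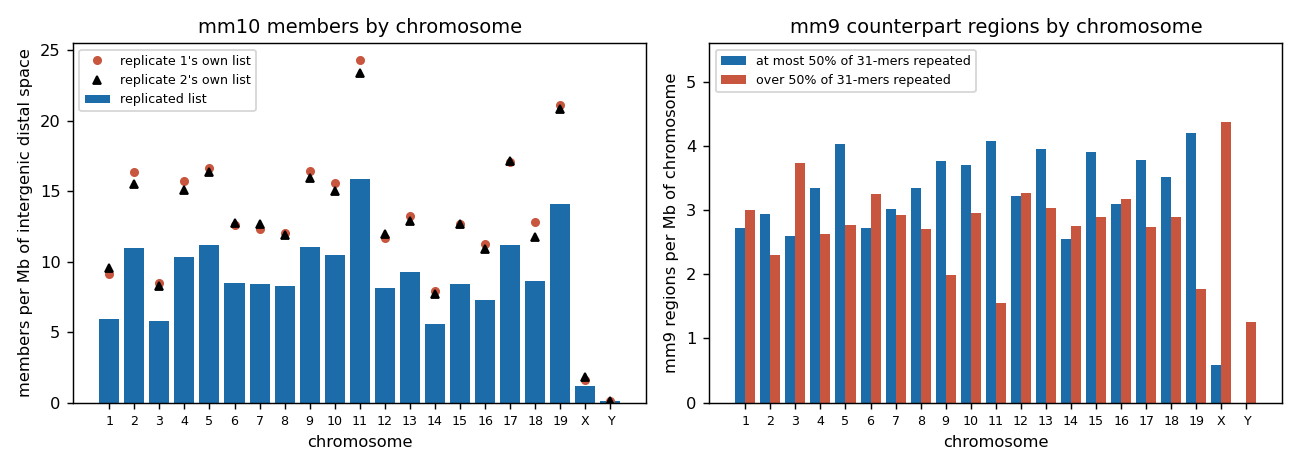
Left: mm10 members per Mb of intergenic distal space by chromosome, with bars for the replicated list and points for the replicates' own lists. Right: mm9 counterpart regions per Mb of chromosome, split by whether over 50% of the 31-base stretches of the central window are repeated; X has 0.588 regions per Mb with mostly unique windows and 4.38 with mostly repeated ones.

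The mm9 counterpart regions held much repeated sequence. A window was called mostly repeated when over 50% of its 31-base stretches occurred at least 2 times in the mm9 genome on either strand. That was so for 7649 counterpart regions, 48.0%, against 25.2% of all regions of the list and 6.28% of regions within 1 kb of a transcript start. Among wide intergenic distal regions the share was 51.8%, and among narrow regions in gene bodies 20.5%. For counterpart regions in the replicates' own mm9 lists it was 51.3 and 54.8%, a mean of 53.0 ± 2.53 (SD, n = 2). By signal quartile it was 29.0, 24.96, 50.7 and 87.1% from lowest to highest. Mostly repeated windows had a median signal of 8.91 and mostly unique ones 3.604. Of the 100 strongest regions, 84 were mostly repeated. The treatment of multiply mapped reads was not given in the sources used here. Repeats in the mm10 members were not measured, since no mm10 genome was used.

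On the X chromosome the mm9 regions split unlike those of the autosomes. The X held 98 mostly unique and 730 mostly repeated regions, or 0.588 and 4.38 per Mb of chromosome. Autosomes held 3.32 and 2.79 per Mb. In the replicates' own lists the X held 0.516 and 0.444 mostly unique regions per Mb and 4.45 and 3.85 mostly repeated ones. Mostly unique regions were thus scarce on the X as mm10 members were, and mostly repeated ones were not.

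CpG content rose with signal. The median ratio of observed to expected CpG in the central 300 bases of the counterpart regions was 0.407, with 0.425 and 0.439 in the replicates' own lists. It was 0.529 for regions within 1 kb of a transcript start and 0.357 for narrow regions in gene bodies. From the lowest to the highest signal quartile the median was 0.265, 0.345, 0.422 and 0.555. Among the 5967 windows with no repeated 31-base stretch the median was 0.338, and the quartile medians were 0.249, 0.313, 0.359 and 0.436. The rise was therefore present in unique sequence too, with a smaller range. Across the 15951 regions, which share libraries and base composition, Spearman's rho was 0.555 for signal and the CpG ratio and 0.727 for signal and GC content.

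A CpG-rich window had a ratio over 0.6 and GC content over 50%. One was found in 1891 counterpart regions, 11.9%, against 18.5% of all regions and 39.1% of those within 1 kb of a transcript start. The share was 1.83, 5.39, 9.38 and 30.8% by signal quartile, and 50 of the 100 strongest regions had one. Among windows with no repeated stretch the share was 7.12%, rising from 0.939 to 18.1% over the quartiles. Of the CpG-rich regions, 1343 were mostly repeated. CpG-rich regions had a median signal of 14.1 and the others 4.29. Both replicates overlapped 88.6% of the CpG-rich regions and 58.2% of the others. They overlapped 74.4% of the mostly repeated regions and 50.2% of the mostly unique ones. These medians and overlaps of CpG-rich and other regions were not split by repeats, so the 2 traits cannot be told apart in them.

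**Figure D5:**
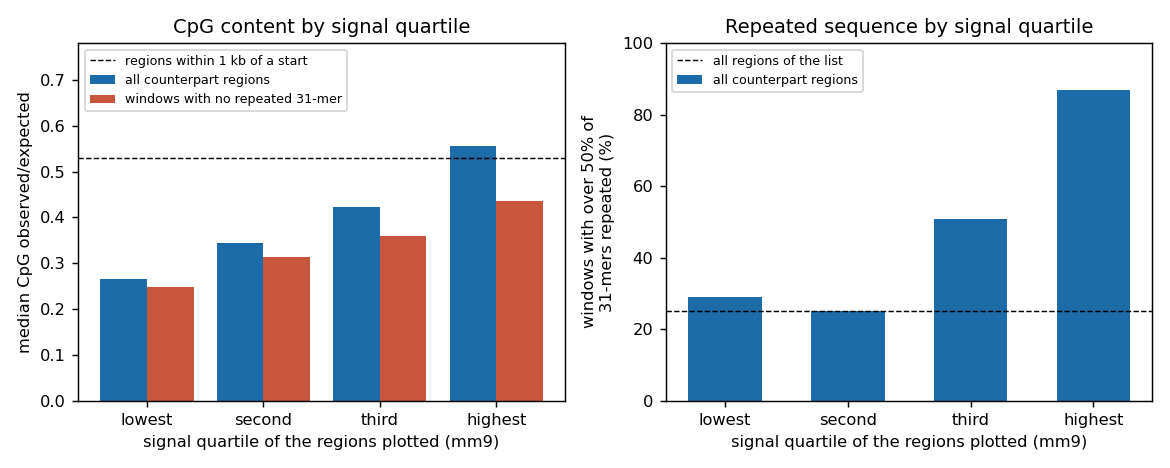
Left: median ratio of observed to expected CpG in the central 300 bases of mm9 counterpart regions by signal quartile, for all regions (blue, 0.265 to 0.555) and for windows with no repeated 31-base stretch (0.249 to 0.436), with quartiles taken within each set and a dashed line at 0.529 for regions within 1 kb of a transcript start. Right: percent of counterpart windows with over 50% of 31-base stretches repeated, by signal quartile, with the share over all regions of the list, 25.2%, as a dashed line.

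Short motifs of factors active in stem cells were counted in the same windows on both strands. ATGCAAAT, the POU octamer, was in 1.18% of counterpart windows and 1.17% of all windows of the list. CATTGTT, a SOX motif, was in 2.44 and 2.95%, TCAAGGTCA, bound by ESRRB, in 0.527 and 0.705%, and GGGCGTGG, a KLF motif, in 1.47 and 2.53%. These shares were near or below those of the whole list.

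Motifs of promoters and some others were counted too. Among these, only CCAAT was more frequent in counterpart windows than in all windows of the list. GGGCGG, the GC box, was in 19.5% of counterpart windows and 22.9% of all windows. It was in 35.3% of windows from regions within 1 kb of a transcript start. Those regions had a median width of 2600 bp, so their central windows need not hold the start. In RefSeq promoter windows of 300 bases (GRCm38.p6, 32851 windows) the share was 35.7%. Neither GGGCGG nor GGGCGTGG contains the other. In CpG-rich counterpart windows the GC box reached 39.5%, and in the other windows 16.9%. The GC box itself holds a CpG, and CpG-rich windows were selected on CpG ratio and GC content. This difference is therefore partly fixed by the selection and is given as a description. CCAAT was in 36.1% of counterpart windows, 32.3% of all windows, 26.1% of windows from regions near transcript starts and 37.4% of RefSeq promoters. CCGGAAGT, an ETS motif, was in 0.614, 1.02, 1.88 and 3.89% of the same sets. CACGTG, the E-box, was in 5.75, 5.75, 5.86 and 7.15%, TGACTCA, the AP-1 motif, in 3.40, 3.904, 3.24 and 5.20%, and CCACCAGGG, a stretch of the CTCF motif, in 0.445, 0.641, 0.743 and 0.645%. The KLF motif, the ETS motif and the E-box hold a CpG too. In CpG-rich counterpart windows they were in 1.43, 0.635 and 5.45%, and in the other windows in 1.48, 0.612 and 5.79%. They thus did not rise as the GC box did. A match describes letters in a window and not binding.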

How the data were processed

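The data are peak lists of 2 biological replicates of 1 group. Per the deposited file descriptions, the mm10 lists are in narrowPeak format, with the authors' signal value, an enrichment ratio, and a −log10 q-value. The mm9 lists are in broadPeak format with a deposited signal ratio and a q-value. No denominator of either ratio is stated. The replicated list was derived by the authors from the pooled and the replicate lists. An aligner or peak caller was not given in the sources used here. Depth is unknown.

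Members were found with numpy 2.4.6 and pandas 2.3.3. RefSeq genes (GRCm38.p6) number 49943 on these chromosomes. The table has no strand, so it was taken from the RefSeq promoter table (27025), the RefSeq microRNA table (1072), or GENCODE vM1 by symbol (8337) or synonym (963). For the other 12546, both ends counted as possible 5′ ends. An overlap was at least 1 bp, and a replicate signal is the highest among the overlapping peaks or regions. Sequence came from the mm9 genome with pysam 0.24.0, and 31-base stretches were counted with numba 0.67.0. The planned share of repeat-masked bases was replaced by that count, since 0 of 21 chromosomes of the genome had masked bases. Scripts were tested on simulated data.

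No test was made, since there is 1 group. Spread is the SD over 2 replicates, which may be technical in part. The members and the gene lists were chosen with earlier results of these data known. Named members are the 5 strongest, 3 weakest and 3 farthest, those at the limits, the 3 densest stretches, and the strongest near 22 stem cell genes. Printed windows are the 3 strongest allowed for printing, the 2 strongest without CpG and the strongest near Sox2 and Klf4. 1 other window chosen by this rule is not reported here. Others were chosen after their values were seen and are said to be so.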

Additional observations from a re-analysis of the deposited data

How the results depend on the processing

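Of 78 values under other settings, 25 moved by less than the spread between replicates (for counts, by less than 1.5 times). The number of members was within 1.5 times of 9861 under all settings but protein-coding genes only (15798) and the pooled mm10 list (18295), and was 14441 to 14675 with 1 replicate left out. The share of the list (15.9%) became 15.2% with a q-value under 1e-05, 11.7% with a 10 kb and 19.4% with a 2 kb minimum distance, 12.8% with width under 1000 bp, 25.4% with protein-coding genes only, 17.3% when only genes with a known strand gave a 5′ end, 18.5% in the pooled list, and 16.9 to 17.2% with 1 replicate left out. Median signal (4.31) became 4.60 with the stricter q-value, 4.03 under 1000 bp, 4.35 with coding genes only, 3.23 in the pooled list and 3.63 to 3.67 with 1 replicate left out. Median width (600 bp) became 637 with the stricter q-value, 588 at 10 kb, 606 at 2 kb, 525 under 1000 bp, 624 with coding genes only, 396 in the pooled list and 365 to 368 with 1 replicate left out. The share overlapped in both replicates (86.9%) became 91.3% with the stricter q-value, 83.9% under 1000 bp, 73.1% when at least 50% of the member had to be covered and 82.6% when its summit had to lie in a peak. Median distance (16.7 kb) became 22.5 kb at 10 kb, 13.0 kb at 2 kb, 17.3 kb under 1000 bp, 33.8 kb with coding genes only, 20.1 kb with known strands only, 17.2 kb in the pooled list and 16.5 to 16.7 kb with 1 replicate left out. The share with a neighbour within 5 kb (52.2%) became 48.3% with the stricter q-value, 48.4% at 10 kb, 57.3% at 2 kb, 49.1% under 1000 bp, 55.0% with coding genes only, 64.5% in the pooled list and 61.4 to 63.3% with 1 replicate left out, and it was 30.97% within 1 kb and 77.6% within 20 kb. In mm9, the number of counterpart regions (15951) was 12069 to 15411 with 1 replicate left out. The CpG ratio (0.407) became 0.377 over whole regions, 0.338 in windows with no repeated stretch, a setting chosen after seeing the data, and 0.425 to 0.439 with 1 replicate left out. The share of mostly repeated windows (48.0%), also added after seeing the data, became 50.95% at 10 kb and 51.3 to 54.8% with 1 replicate left out. The settings planned for repeat-masked bases were not run, since the genome used carries no masking. No paired analysis was possible because there is only 1 group. Peak numbers and the support of weak members are limited by a depth that is unknown.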
